A study of Mus musculus with 4 samples.

Results

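The core circadian clock genes described here are 10 transcription loop genes, Arntl (Bmal1), Clock, Per1, Per2, Cry1, Cry2, Nr1d1, Nr1d2, Bhlhe40 and Bhlhe41. They were chosen by name, by matching the Ensembl gene IDs of the deposited count tables to the symbols of the mouse GENCODE M21 annotation. They are 10 of 52550 gene entries, and 10 of the 12730 genes with enough counts to test. The study sequenced poly(A) RNA of bone marrow-derived macrophages, which are macrophages grown from marrow progenitors, from C57BL/6 mice aged 8 to 10 weeks. Of 4 libraries, 1 came from miR-7 deficient cells given lipopolysaccharide (LPS, a bacterial cell wall product sensed through Toll-like receptor 4) at 100 ng/mL for 12 hours, and 1 from miR-7 deficient cells left unstimulated. Another came from wild-type cells given the same LPS dose for the same time, and the last from wild-type cells left unstimulated. How the deficiency was made, which miR-7 genes it affects, how many mice each library holds and at what hour of the day cells were collected are not stated in the labels.

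The clock is a delayed negative feedback loop of transcription. BMAL1 (the protein of Arntl) and CLOCK bind E-boxes as a pair and drive the Per, Cry, Nr1d and Bhlhe genes, and PER and CRY proteins then block that pair. The NR1D proteins (REV-ERB alpha and beta) repress Arntl through ROR response elements, and in macrophages the clock proteins BMAL1 and REV-ERB alpha are known to restrain inflammatory gene expression.

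Library totals ranged from 33937823 to 42074624 counts, so that 3 counts, used as the limit of detection, stood for 0.0713 to 0.0884 CPM, which are counts scaled to a common library size with factors from the trimmed mean of M values (TMM). All 10 macrophage markers were detected in every library, with summed levels of 13680 to 23305 CPM. Markers of neutrophils (8 genes), T and NK cells (4), mast cells (3) and erythroid cells (3) summed to at most 11 CPM in any library, and Ly6g, Elane, Flt3, Cd3d, Ncr1, Mcpt8 and Ms4a2 had 0 counts throughout. Levels of 12 LPS response genes were compared per library total, without TMM factors. Without LPS they had a median of 0.292% of the level with LPS in miR-7 deficient cells and 1.63% in wild-type cells. The genotype label could not be checked, because poly(A) libraries do not measure mature miRNAs and the Mir7-1 locus had 7 counts in miR-7 deficient cells with LPS, 7 in those without, 10 in wild-type cells with LPS and 15 in those without. In bulk RNA such as this, a smaller share of cells of one kind and less RNA per cell cannot be told apart.

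The mature miRNAs are shown because the study is about their loss, and the bases in capitals are the seed, positions 2 to 8 from the 5′ end. miR-7a-5p comes from Mir7-1 on chromosome 13 and Mir7-2 on chromosome 7, miR-7b-5p comes from Mir7b on chromosome 17, and they share the seed (sequences from RefSeq, GRCm38.p6).
mmu-miR-7a-5p: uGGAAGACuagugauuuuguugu
mmu-miR-7b-5p: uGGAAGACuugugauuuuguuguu
Of the 10 members, 1 held the complement of that seed in its longest annotated 3′ UTR. This was Cry2, which held it 1 time, starting at base 1152 of a UTR of 2177 bases. The match is in capitals, with its flanks, at chr2:92404654-92404682 on the minus strand (GRCm38).
Cry2 site: cacctgagcaaGTCTTCCttctaccccgt
Of all 11296 tested genes with an annotated 3′ UTR, 1613 (14.3%) held the same 7 bases, so 1 of 10 members is near that share. With 6 bases 7 members matched, where 46.4% of all did, and with 8 bases 0 members matched, where 4.23% did. A match is a description of the letters and not evidence of regulation.

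RefSeq promoters (GRCm38.p6, 250 bases before and 50 after a start site) were found for 8 members, in 12 windows, and not for Per2 and Bhlhe40. The E-box CACGTG, to which the BMAL1 and CLOCK pair binds, was present at position -60 from the Cry1 start, -166 from a Per1 start and -153 from the Bhlhe41 start, and in 7.15% of all 32851 promoters. The core AGGTCA of the ROR response element, searched on both strands, was present in windows of Arntl, Clock, Nr1d2 and Per1 and in 16.3% of all promoters. Its variant GGGTCA occurred in 0 of the 12 windows and in 13.7% of all. The D-box TTANGTAA and the cAMP response element TGACGTCA also occurred in 0 of the 12, and in 2.32% and 1.79% of all promoters. No matches overlapped each other in these windows. Windows of 3 members are shown, picked after their motifs were seen, as examples of the elements named, with the E-box and ROR core in capitals: Arntl at chr7:113207261-113207560 on the plus strand, Per1 at chr11:69098699-69098998 on the plus strand and Cry1 at chr10:85185005-85185304 on the minus strand.
Arntl promoter: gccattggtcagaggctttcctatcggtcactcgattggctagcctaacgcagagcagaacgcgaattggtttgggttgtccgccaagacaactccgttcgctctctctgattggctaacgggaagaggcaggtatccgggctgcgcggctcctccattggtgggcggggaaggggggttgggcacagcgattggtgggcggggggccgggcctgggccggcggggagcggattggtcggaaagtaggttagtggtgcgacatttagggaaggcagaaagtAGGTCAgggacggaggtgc
Per1 promoter: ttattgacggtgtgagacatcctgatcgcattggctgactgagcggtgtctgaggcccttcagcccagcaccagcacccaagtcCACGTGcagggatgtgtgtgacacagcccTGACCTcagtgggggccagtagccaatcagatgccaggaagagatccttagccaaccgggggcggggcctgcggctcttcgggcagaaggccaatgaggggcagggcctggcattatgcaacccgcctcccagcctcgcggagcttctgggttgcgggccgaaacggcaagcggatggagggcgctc
Cry1 promoter: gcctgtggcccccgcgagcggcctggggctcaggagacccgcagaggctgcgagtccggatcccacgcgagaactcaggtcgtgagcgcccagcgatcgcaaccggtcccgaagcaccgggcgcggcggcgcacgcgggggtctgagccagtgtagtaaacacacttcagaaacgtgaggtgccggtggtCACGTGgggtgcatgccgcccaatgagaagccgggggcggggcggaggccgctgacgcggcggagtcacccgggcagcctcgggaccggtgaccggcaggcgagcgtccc
In the Arntl window the ROR core lies at position 32 from the start, and in the Per1 window at -137 on the opposite strand, where it reads TGACCT in the printed strand.

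All 10 members were detected in all 4 libraries, at levels that spanned a wide range. Per kilobase of exon, Bhlhe40 had the highest mean level, at 61.7 CPM per kb over the 4 libraries (range 55.1 to 73.7), higher than 94.0% of all genes tested. Bhlhe41 followed at 45.0 (37.1 to 55.1). These genes encode DEC1 and DEC2, repressors that compete for E-boxes. Nr1d2 averaged 6.37 CPM per kb, Per1 6.04, Cry1 4.87 and Clock 2.54. Per2 averaged 2.22, Cry2 1.52, Nr1d1 1.27 and Arntl 0.967 (range 0.55 to 1.18), the last higher than 16.1% of all genes tested. The ranges of Bhlhe40 and Bhlhe41 met at 55.1 to the digits given, so whether they are apart cannot be told. Those of Bhlhe41 and Nr1d2 did not overlap, and every later pair of neighbours in this order overlapped. With the length of the longest coding transcript instead, Arntl ranked 7 in place of 10, Per2 9 in place of 7 and Nr1d1 10 in place of 9, with the other ranks as given.

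**Figure D1:**
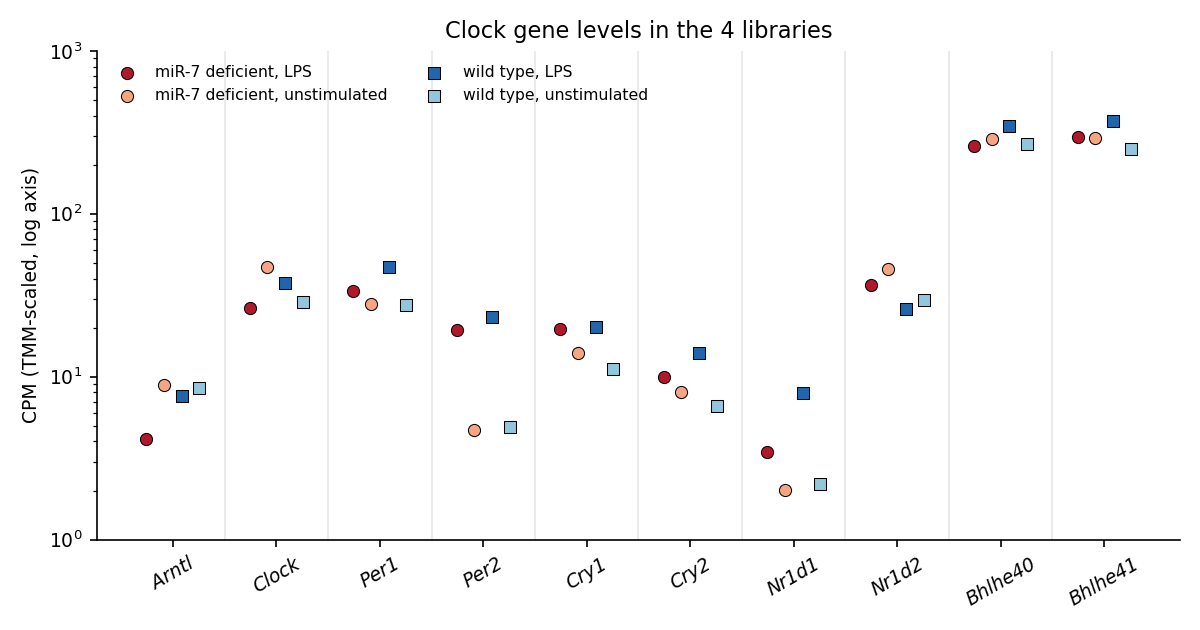
Level of each of the 10 clock genes in each of the 4 libraries (TMM-scaled CPM, log axis). Each point is 1 library, circles for miR-7 deficient and squares for wild-type cells, with LPS left of unstimulated. Bhlhe40 and Bhlhe41 lie between 250 and 370 CPM, Per2 is at 19.3 and 23.1 CPM with LPS and 4.72 and 4.92 without, and Arntl is at 4.14 CPM in miR-7 deficient cells with LPS and at 7.57 to 8.84 CPM in the other libraries.

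After 12 hours of LPS, Per2 was the only member called higher (adjusted p under 0.05). Per2, a repressor of BMAL1 and CLOCK whose gene lies on chromosome 1 (91415982 to 91459324, minus strand, GRCm38), had 19.3 CPM with LPS and 4.72 without in miR-7 deficient cells, against 23.1 with LPS and 4.92 without in wild-type cells. The libraries with LPS were apart from those without in both genotypes. The fitted log2 change was 2.13 ± 0.24 (SE), a 4.39-fold rise, with an adjusted p of 0.00138 by edgeR's quasi-likelihood test of an additive model over the 4 libraries. Counts behind these levels were 724 with LPS and 185 without in miR-7 deficient cells, and 765 with and 230 without in wild-type cells. The rise was 4.10-fold in miR-7 deficient cells and 4.69-fold in wild-type cells, as log2 ratios 2.04 (95% counting interval 1.8 to 2.28) and 2.23 (2.02 to 2.45). Taking 1.63% of the wild-type LPS counts out of the wild-type unstimulated library, the share that the LPS response genes show there, left a fitted log2 change of 2.17 with an adjusted p of 0.0028. Summed markers of other cells also differed with LPS, at 18.7 CPM with and 1.22 without in miR-7 deficient cells and 16.4 with and 1.65 without in wild-type cells for fibroblasts (4 of 4 genes, mostly Pdgfrb). Dendritic cell markers (6 genes) summed to 9.16 CPM with and 33.5 without in miR-7 deficient cells and 11 with and 24.5 without in wild-type cells, and B cell markers (4 genes) to 0.107 with and 10.1 without, and 0.121 with and 6.54 without. Their part in the result was not tested.

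Of the 10 members, 1 was called higher and 0 lower with LPS, where 18% of all genes tested were called higher and 16.3% lower, and the members' shares were no higher than those. At an unadjusted p under 0.05 there were 3 members. The median fitted log2 change was 0.40 over the members and -0.04 over all genes tested. Since each group is 1 library, any difference between the genotypes in their LPS response counts as error in this fit.

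Per1, the other Period repressor, had 33.3 CPM with LPS and 28.0 without in miR-7 deficient cells, and 47.2 with and 27.5 without in wild-type cells. It was higher with LPS in both pairs under TMM scaling, but its fitted log2 change of 0.52 ± 0.23 was not called (adjusted p = 0.133), and in miR-7 deficient cells its ratio was -0.13 when scaled by total counts. Cry1, a Cryptochrome repressor, had 19.7 CPM with LPS and 13.9 without in miR-7 deficient cells, and 20.3 with and 11.2 without in wild-type cells. Its fitted log2 change was 0.68 ± 0.23 and not called (adjusted p = 0.0636), and under total counts it was 0.27. In miR-7 deficient cells the ratio of Cry1 was 0.12 under total counts against 0.50 under TMM. Cry2, its paralog and the member with the miR-7 seed match, had 9.93 CPM with LPS and 8.08 without in miR-7 deficient cells, and 13.9 with and 6.63 without in wild-type cells. The fitted log2 change of Cry2 was 0.68 ± 0.30 (adjusted p = 0.128), and in miR-7 deficient cells its ratio was -0.08 under total counts against 0.30 under TMM.

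Nr1d1 encodes REV-ERB alpha, a haem-binding repressor, on chromosome 11 (98767932 to 98775333, minus strand). It had 3.47 CPM with LPS and 2.01 without in miR-7 deficient cells, and 7.93 with and 2.20 without in wild-type cells. The wild-type LPS library was the highest, at 263 counts against 130 or fewer in the others. The fitted log2 change of 1.32 ± 0.43 (2.50-fold) was not called by edgeR (adjusted p = 0.0582). With LPS as the only factor, it was 1.91 without the miR-7 deficient LPS library and 0.72 without the wild-type LPS library. Those fits do not separate genotype from LPS. Nr1d1 shares 263 exonic bases with Thra, the thyroid hormone receptor gene on the opposite strand, and whether reads were counted by strand is not stated. Thra had 10.3 CPM with LPS and 9.74 without in miR-7 deficient cells, and 18.4 with and 11.3 without in wild-type cells, so its highest library was also wild-type LPS, and reads of the overlap cannot be assigned.

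Nr1d2, which encodes REV-ERB beta, went the other way from Nr1d1 in each genotype. It had 36.7 CPM with LPS and 45.6 without in miR-7 deficient cells, and 26.0 with and 29.7 without in wild-type cells. The fitted log2 change was -0.25 ± 0.20 (adjusted p = 0.377), and it was -0.66 and called (adjusted p = 0.043) under total-count scaling, which shifts every LPS ratio by -0.38 in miR-7 deficient cells and -0.44 in wild-type cells.

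The activators were not called. Arntl (chromosome 7, 113207465 to 113314126, plus strand), at 155 to 400 counts per library the member with the lowest level per length, had 4.14 CPM with LPS and 8.84 without in miR-7 deficient cells, and 7.57 with and 8.55 without in wild-type cells. The miR-7 deficient LPS library stood below the other 3, which lay within 7.57 to 8.84 CPM. Its fitted log2 change was -0.63 ± 0.35 (edgeR adjusted p = 0.211). With LPS as the only factor, it was -0.20 without the miR-7 deficient LPS library and -1.07 without the wild-type LPS library. Clock (chromosome 5, 76209868 to 76304792, minus strand), the partner of BMAL1, had 26.2 CPM with LPS and 47.1 without in miR-7 deficient cells, and 37.3 with and 28.8 without in wild-type cells. Its pairs went opposite ways, at log2 ratios of -0.84 (-0.96 to -0.73) in miR-7 deficient cells and 0.37 (0.26 to 0.49) in wild-type cells, the wild-type value being -0.07 under total counts. The fitted log2 change of Clock was -0.23 ± 0.32 (adjusted p = 0.613).

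The abundant repressor genes Bhlhe40 and Bhlhe41 were not called. Bhlhe40 had 259 CPM with LPS and 286 without in miR-7 deficient cells, and 347 with and 268 without in wild-type cells (fitted log2 change 0.11 ± 0.21, adjusted p = 0.71). Bhlhe41 had 296 CPM with LPS and 293 without in miR-7 deficient cells, and 370 with and 250 without in wild-type cells (fitted log2 change 0.29 ± 0.22, adjusted p = 0.347). The wild-type LPS library was the highest for both paralogs, and under total counts both fitted changes turned negative, to -0.29 for Bhlhe40 and -0.12 for Bhlhe41. Bhlhe41 shares 1280 exonic bases with Gm43909, which had 1746 to 2516 counts per library, and Bhlhe40 shares 118 with 0610040F04Rik, which had 194 to 284.

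**Figure D2:**
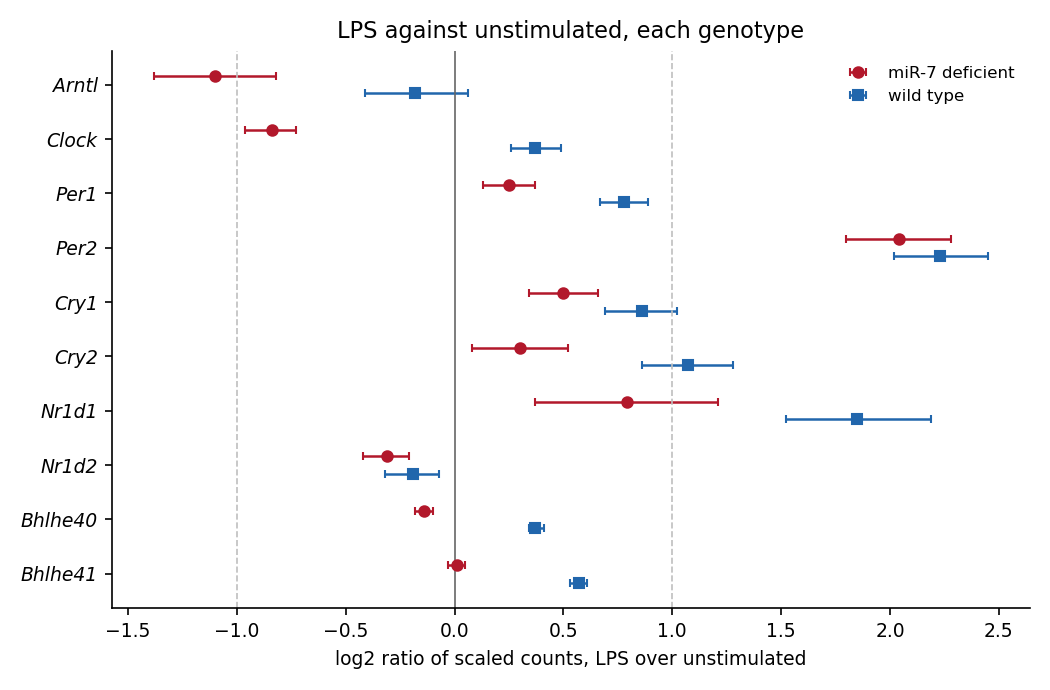
LPS over unstimulated log2 ratios of the 10 clock genes, miR-7 deficient cells above wild-type cells, with 95% counting intervals (horizontal axis, log2 of TMM-scaled counts). Per2 lies at 2.04 and 2.23, and Arntl, Clock and Nr1d1 differ most between the genotypes. Dashed lines mark 2-fold. Of the ratios with intervals off 0, Per1 and Cry2 in miR-7 deficient cells and Clock and Bhlhe40 in wild-type cells change sign under total-count scaling.

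Set pair by pair, 1 member lay beyond 2-fold higher with LPS in miR-7 deficient cells (Per2) and 0 beyond 2-fold lower, where 12.5% and 11.8% of all genes did. In wild-type cells, 2 members lay beyond 2-fold higher (Per2 and Nr1d1, at 1.85, 1.52 to 2.19) and 0 lower, where 14.8% and 13.3% of all genes did. These counts require the whole counting interval to pass the fold, and they describe single libraries, with no replicate check.

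Ratios of members within a library do not depend on the scaling between libraries. Counts of Per2 per count of Arntl, a repressor set against an activator, were 4.67 (3.92 to 5.59) with LPS and 0.533 (0.444 to 0.639) without in miR-7 deficient cells. In wild-type cells they were 3.05 (2.64 to 3.53) with LPS and 0.575 (0.487 to 0.678) without. Per2 thus outnumbered Arntl in both LPS libraries and was outnumbered by it in both unstimulated ones. Counts of Per2 per count of Per1 were 0.580 with LPS and 0.168 without in miR-7 deficient cells, and 0.489 with and 0.179 without in wild-type cells. Counts of Nr1d1 per count of Nr1d2 were 0.0947 (0.0785 to 0.113) with LPS and 0.0442 (0.0348 to 0.0554) without in miR-7 deficient cells, and 0.305 (0.265 to 0.351) with and 0.0742 (0.0601 to 0.0906) without in wild-type cells. The balance between the REV-ERB genes was therefore highest in wild-type cells with LPS. Within each genotype the intervals with and without LPS did not overlap, but that of miR-7 deficient cells with LPS overlapped that of unstimulated wild-type cells. Bhlhe40 per Bhlhe41 stayed between 0.877 and 1.07, and Cry1 per Cry2 between 1.46 and 1.98. Clock per Arntl was 6.34 (5.35 to 7.56) with LPS and 5.32 (4.74 to 5.99) without in miR-7 deficient cells, intervals that overlap. In wild-type cells it was 4.93 (4.3 to 5.67) with and 3.37 (3.01 to 3.78) without. The pairs were chosen after the values were seen.

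**Figure D3:**
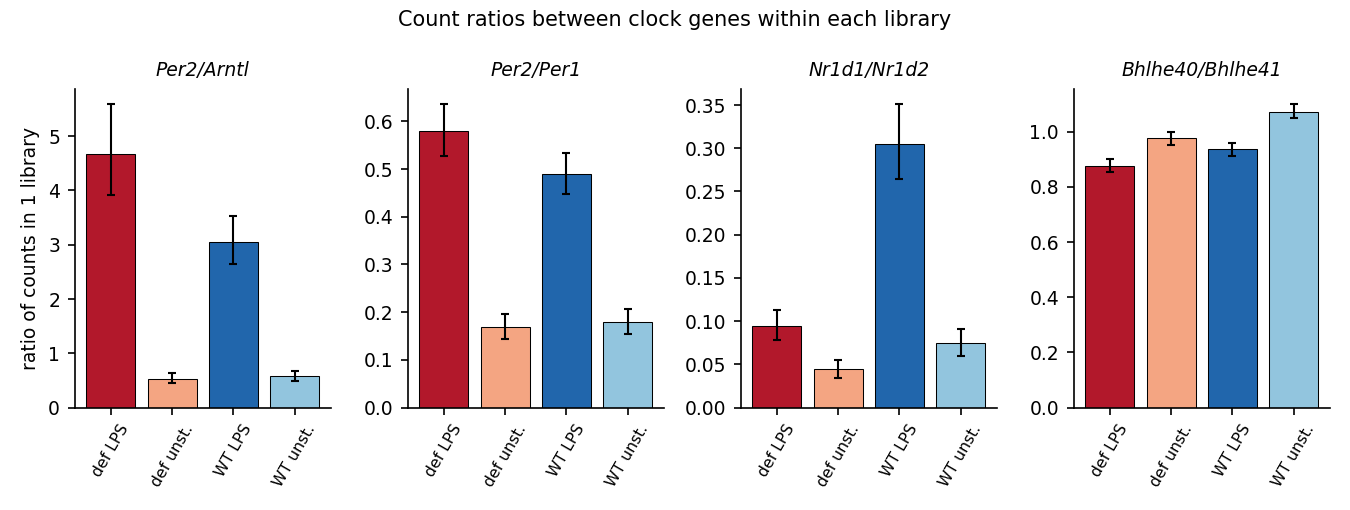
Ratio of the counts of 2 clock genes within each library, for 4 gene pairs. Bars start at 0, error bars are 95% counting intervals, and def marks miR-7 deficient, WT wild-type and unst. unstimulated cells. Per2 per Arntl is 4.67 and 3.05 with LPS and 0.533 and 0.575 without.

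No member was called for genotype. Of the 10, 0 were called higher and 0 lower in miR-7 deficient than in wild-type cells, where 0.385% of all genes were called higher and 0.165% lower. With DESeq2's Wald test the count was also 0, and 1 member had an unadjusted p under 0.05 by edgeR. This was Nr1d2, at 36.7 and 45.6 CPM in miR-7 deficient cells with and without LPS, against 26.0 and 29.7 in wild-type cells with and without. Nr1d2 was higher in miR-7 deficient cells in both states, with a fitted log2 change of 0.56 ± 0.20 (adjusted p = 0.56). The fitted changes of Arntl, -0.40 ± 0.35 (adjusted p = 0.935), and of Nr1d1, -0.67 ± 0.43 (adjusted p = 0.881), were not called either. Cry2, which holds the seed match, had a fitted log2 change of -0.10 (adjusted p = 0.993). The median over the members was -0.13, against 0.02 over all genes tested.

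The genotype pairs differed between states. With LPS, 1 member (Nr1d2) had a counting interval wholly above 0 and 8 below, where 34.8% of all genes lay above and 31.6% below. Without LPS, 6 members lay above and 0 below, where 31.9% and 30.7% of all genes did. 0 members lay beyond 2-fold in either direction in either state, where 2.58% of all genes were beyond 2-fold higher and 3.04% lower with LPS, and 2.82% higher and 1.41% lower without. Among LPS-treated cells the widest genotype differences were those of Nr1d1, at a log2 ratio of -1.19 (-1.51 to -0.88), and Arntl, at -0.87 (-1.17 to -0.58). Without LPS, the same genes were at -0.13 (-0.57 to 0.31) and 0.05 (-0.16 to 0.26), intervals that include 0. Clock was at -0.51 (-0.63 to -0.39) with LPS and 0.71 (0.61 to 0.81) without. Cry2 was at -0.49 (-0.69 to -0.28) with LPS and 0.29 (0.06 to 0.52) without.

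**Figure D4:**
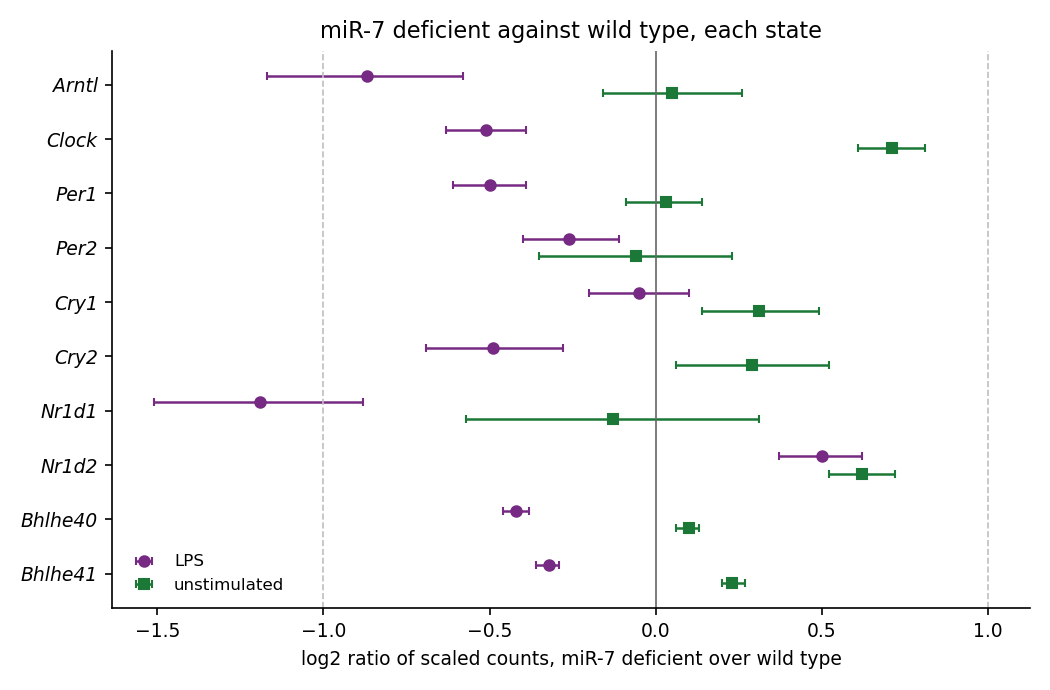
Log2 ratio of miR-7 deficient over wild-type cells for the 10 clock genes (horizontal axis, TMM-scaled counts), LPS above unstimulated, with 95% counting intervals and dashed lines at 2-fold. With LPS, 8 members lie below 0 and Nr1d2 above, and without LPS, 6 lie above 0 and 0 below.

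The difference between the LPS ratios, miR-7 deficient minus wild-type, uses the same 4 counts per gene as the genotype pairs and so gives no second line of evidence. It was below 0, beyond its counting interval, for 8 members and above 0 for 0, where 33% of all genes were below and 31.5% above. The median was -0.54 over the members and 0.00 over all genes tested. Clock had the widest difference, at -1.22 (-1.37 to -1.06), followed by Nr1d1 at -1.06 (-1.58 to -0.54), Arntl at -0.92 (-1.27 to -0.56) and Cry2 at -0.77 (-1.07 to -0.47). Bhlhe41 was at -0.56 (-0.61 to -0.51), Per1 at -0.53 (-0.68 to -0.37), Bhlhe40 at -0.52 (-0.57 to -0.46) and Cry1 at -0.36 (-0.59 to -0.13). Per2, at -0.20 (-0.51 to 0.12), and Nr1d2, at -0.12 (-0.28 to 0.04), had intervals that include 0. LPS ratios of opposite sign, both with intervals off 0, were found for 2 members, Clock and Bhlhe40, which is 20%, where 8.37% of all genes had them, and under total-count scaling both ratios of each were below 0. With 1 library per group the spread between cultures is unknown, so no p is given, and whether these differences exceed it cannot be told.

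A list of 40 other clock genes (further loop members, output factors, kinases, ubiquitin ligase parts and cofactors) was all found, and 34 were tested. With LPS, 7 were called higher, 3 lower and 24 were not called, where 18% of all genes tested were called higher and 16.3% lower, and the median fitted log2 change of the list was 0.07. Nampt, which makes a precursor of the NAD+ that sirtuins use, rose to 1267 CPM with LPS against 348 without in miR-7 deficient cells. In wild-type cells it rose to 2005 against 288 (fitted log2 change 2.33 ± 0.29, adjusted p = 0.00192). Nfil3, a D-box repressor, rose to 30.4 CPM with LPS against 8.11 without in miR-7 deficient cells, and to 68.9 against 17.1 in wild-type cells (1.96 ± 0.21, adjusted p = 0.00117). Timeless, a replication fork protein named after the fly clock gene, rose by 2.0 ± 0.28 (adjusted p = 0.00287), and Fbxw11, a ubiquitin ligase part that recognises phosphorylated PER, by 0.92 ± 0.18 (adjusted p = 0.0111). The other genes called higher were Cul1, Btrc and Nono.

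The genes called lower were Npas2, Tipin and Csnk1e. Npas2, a paralog of Clock that also pairs with BMAL1, fell to 0.347 CPM with LPS against 4.56 without in miR-7 deficient cells, and to 0.483 against 4.42 in wild-type cells (log2 -3.44 ± 0.48, adjusted p = 0.00304). Csnk1e, a casein kinase that phosphorylates PER proteins, fell to 14.4 CPM with LPS against 37.3 without in miR-7 deficient cells, and to 17.2 against 37.6 in wild-type cells (-1.25 ± 0.21, adjusted p = 0.00619). Tipin, the partner of Timeless, had a log2 change of -1.27 ± 0.36 (adjusted p = 0.0384). Timeless, Csnk1e, Cul1 and Btrc, and among the genes below Dbp, Tef, Rora, Usp2 and Ddb1, share exonic bases with other genes, whose reads cannot be told apart from theirs.

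Loop and output genes that were not called lay on both sides of 0. Per3, the third Period gene, was at a fitted log2 change of -0.80 ± 0.34 (adjusted p = 0.119), and Ciart, a repressor of BMAL1 and CLOCK, at 1.51 ± 0.48 (adjusted p = 0.0533). Dbp and Tef, activators at D-boxes, were at -1.15 ± 0.45 (adjusted p = 0.0975) and -0.28 (adjusted p = 0.391). Hlf, the other factor of that family, had 0 counts in 3 libraries and 5 in unstimulated wild-type cells. Rora, a ROR activator of Arntl, had 13.4 CPM with LPS and 30.9 without in miR-7 deficient cells, and 26.9 with and 26.4 without in wild-type cells, so like Arntl it was lowest in miR-7 deficient cells with LPS (fitted log2 change -0.59 ± 0.33, adjusted p = 0.218). Usp2, a deubiquitinase, was at -1.64 ± 0.54 (adjusted p = 0.06). Of the most abundant genes of the list per length, Ddb1 and Skp1a, both ubiquitin ligase parts, were at -0.26 (adjusted p = 0.341) and 0.08 (adjusted p = 0.791), while Nono, an RNA-binding partner of PER proteins, rose by 0.66 (adjusted p = 0.0353).

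For genotype, 0 of the 34 genes were called in either direction (4 at an unadjusted p under 0.05, and 1 lower by DESeq2's Wald test), where 0.385% of all genes were called higher and 0.165% lower. The median fitted log2 change of the list was -0.07. Nfil3 was lower in miR-7 deficient cells in both states without being called, at a fitted log2 change of -1.13 (adjusted p = 0.136).

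**Figure D5:**
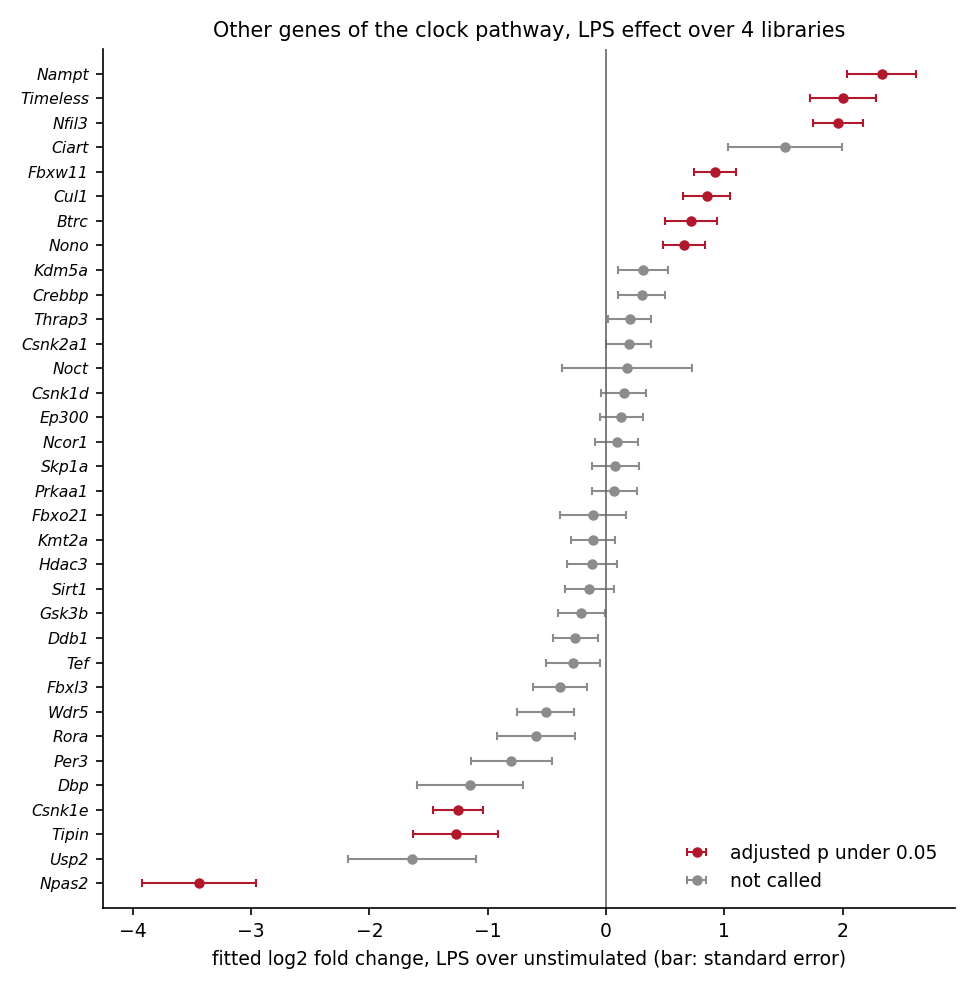
Fitted LPS effect (log2, additive model) with standard errors for the 34 tested genes of the list of other clock genes, those called in red. Nampt is at the high end, at 2.33, and Npas2 at the low end, at -3.44.

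Genes with the profile nearest to a member over the 4 libraries were taken as those with the smallest distance of centred log2 CPM. For Per2, the member with the highest fitted LPS change, they included Grina, at a distance of 0.0765, and Me1, at 0.112. Grina had 1046 CPM with LPS and 272 without in miR-7 deficient cells, and 1309 with and 298 without in wild-type cells. For Arntl, the member with the lowest, they were Bnip3l at 0.0603, Atp2b1 at 0.0828 and Ccr1 at 0.0905. Bnip3l had 123 CPM with LPS and 239 without in miR-7 deficient cells, and 216 with and 244 without in wild-type cells, the same low library as Arntl.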

How the data were processed

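The authors deposited raw counts per gene, 1 table per library, which were used as deposited. Per the series' design text, poly(A) RNA was sequenced on an Illumina instrument and analysed with the Casava v1.8.2 pipeline and Cutadapt, with alignment by TopHat v2.0.13 and Bowtie2. The submitters' processing notes name HTSeq and the mm8 build. Neither the strand setting nor the annotation release is stated. Of 52550 gene IDs, 52403 (99.7%) matched GENCODE M21 (GRCm38), which gave symbols, coordinates and exon lengths.

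Genes reaching a CPM of 1 in 2 or more libraries were tested with edgeR 4.0.16 (limma 3.58.1, R 4.3.3), by the quasi-likelihood test of an additive genotype and LPS model with TMM factors and Benjamini-Hochberg adjustment over 12730 genes, called under 0.05. Standard errors are the log2 change divided by the square root of F. The CPM filters used library totals without TMM factors. The biological coefficient of variation was 0.247. Each group has 1 library, so the pairs of the other factor stand in for replicates and p-values measure how alike those pairs are. Pairs were compared by log2 ratios with exact Clopper-Pearson 95% intervals, and differences of ratios by normal 95% intervals after adding 0.5 counts. Intervals and the limit of 3 counts cover counting error only, since each group has 1 library. Reads also carry no molecular identifiers. DESeq2 1.42.0, other scalings, filters and left-out libraries were alternatives. The 10 members are all named. Of the other clock genes, those named are the 4 called with the highest and the 4 with the lowest LPS change (3 were called lower), the 4 with the highest level per length, and 11 fixed loop or output genes. A few genes that these rules or the marker lists name are not reported here. Members and lists were chosen with earlier results of these data known.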

Additional observations from a re-analysis of the deposited data

Results flagged for a closer look

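Some LPS ratios went opposite ways in miR-7 deficient and wild-type cells, with counting intervals off 0 in both. The difference, miR-7 deficient minus wild-type, was -1.22 on the log2 scale for Clock, -0.52 for Bhlhe40 and -0.35 for Skp1a. It was also -2.20 for Noct, the nocturnin gene, and -0.90 for Fbxo21, a ubiquitin ligase part, both named after their values were seen. With 1 library per group the difference was not tested. Under total-count scaling the LPS ratios had 1 sign in both genotypes for Clock (-1.22 in miR-7 deficient and -0.07 in wild-type cells), Bhlhe40 (-0.52 and -0.07), Skp1a (-0.47 and -0.19) and Fbxo21 (-0.94 and -0.10), and opposite signs for Noct (-1.32 and 0.82).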

How the results depend on the processing

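Each group has 1 library, and an estimate of spread between cultures is missing. Alternatives were other scalings, other filters, DESeq2's Wald test and LPS or genotype as the only factor. Removal of the 1.63% share of the wild-type LPS library from the unstimulated one was another. Each library was also left out, with LPS or genotype then the only factor, so the other factor enters those changes. The Per2 rise with LPS was called in all 11, with log2 changes of 1.72 to 2.26 and adjusted p of 1.02e-08 to 0.0283. Members called higher with LPS were 1 to 2 when libraries were left out, and Nr1d2 made 1 called lower under total counts. Under total counts the LPS change was -0.29 for Bhlhe40 and -0.12 for Bhlhe41, the LPS ratio in miR-7 deficient cells was -0.13 for Per1 and -0.08 for Cry2, and in wild-type cells it was -0.07 for both Clock and Bhlhe40. Total counts also gave 3 other clock genes higher and 10 lower, 3840 of all genes lower, and 2 members beyond 2-fold lower in miR-7 deficient cells. A CPM minimum of 10 gave 1 other clock gene lower. With libraries left out, other clock genes numbered 2 to 6 higher and 1 to 3 lower, and all genes 1088 to 1744 higher and 588 to 1464 lower. LPS changes then ran from -0.53 to 0.15 for Clock, -0.53 to 0.08 for Nr1d2, -0.10 to 0.32 for Bhlhe40, -1.07 to -0.20 for Arntl, 0.72 to 1.91 for Nr1d1, 0.26 to 0.76 for Per1, 0.58 to 0.84 for Cry1, 0.43 to 0.92 for Cry2 and 0.12 to 0.45 for Bhlhe41. For genotype, genes called higher numbered 27 with DESeq2's size factors, 31 with total counts, 18 with no filter, 147 by the Wald test, 26 with that share removed and 0 with genotype as the only factor. Those called lower numbered 12 with no filter, 81 by the Wald test (1 other clock gene) and 0 with genotype as the only factor. That last fit holds no LPS term, so the LPS response counts as error and its counts of 0 cannot tell about genotype. Genotype changes with libraries left out ran from -0.97 to 0.13 for Arntl, -0.34 to 0.51 for Clock and -0.66 to 0.16 for Per1. They ran from -1.57 to 1.29 for Per2, -0.31 to 0.58 for Cry1 and -0.66 to 0.44 for Cry2. For Nr1d1 they were -1.57 to 0.32, for Nr1d2 0.39 to 0.71, for Bhlhe40 -0.39 to 0.03 and for Bhlhe41 -0.37 to 0.24. Those fits hold no LPS term and unequal numbers of LPS libraries per genotype, so LPS changes enter them. For Per2, the genotype pairs themselves were at -0.26 with LPS and -0.06 without. With a limit of 1.5-fold, 2 members lay lower with LPS in miR-7 deficient cells and 5 higher in wild-type cells, 1 lay lower by genotype with LPS and 1 higher without, and at 3-fold 1 lay higher with LPS in wild-type cells. The miR-7 match was in 7 members with 6 bases and 0 with 8. The causes were not tested. No paired analysis by culture was possible because each group has 1 library. A replicate block therefore cannot be added to the main fit, which already holds genotype and LPS together. Arntl and Nr1d1 rest on 79 to 400 counts per library, which sets the width of their intervals.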

Other observations

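Among LPS-treated cells, 4 of the 34 other clock genes lay beyond 2-fold lower in miR-7 deficient than in wild-type cells and 0 higher, where 3.04% of all genes lay lower and 2.58% higher. Without LPS 0 did in either direction, where 1.41% of all genes lay lower and 2.82% higher. They are named after their values were seen. The log2 ratios with LPS were -1.98 (counting interval -2.26 to -1.71) for Noct, -1.98 (-2.88 to -1.16) for Usp2, -1.34 (-1.50 to -1.17) for Fbxo21 and -1.18 (-1.29 to -1.08) for Nfil3. Without LPS, Noct was at 0.22 (-0.02 to 0.46), Usp2 at -0.69 (-1.08 to -0.30), Fbxo21 at -0.44 (-0.58 to -0.30) and Nfil3 at -1.08 (-1.27 to -0.89).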
